A study of Mus musculus with 12 samples.

Results

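The genes described here are 9 transcription factor genes of the myeloid lineage, *Spi1*, *Cebpa*, *Cebpb*, *Cebpd*, *Runx1*, *Ikzf1*, *Maf*, *Batf3* and *Nr4a3*, out of the 49315 genes counted in the brain of each mouse. They were chosen by name, by gene symbol matched to Ensembl identifier, and no measured value enters the rule, although the list was drawn up with earlier results of these data known. All 9 were in the count table, and all 9 passed the filter on low counts that left 20290 genes for testing.

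Blood cells of the myeloid lineage, which include monocytes, granulocytes, dendritic cells and macrophages, are specified by a small number of transcription factors that act together on shared enhancers. PU.1, the product of *Spi1*, works with RUNX1 and the C/EBP proteins in marrow progenitors, and PU.1 and RUNX1 also serve the microglia, the resident macrophages of the brain. After a stroke, monocytes and other leukocytes enter the injured tissue while local microglia and border macrophages react, so a count of these transcripts in whole brain is drawn from several cell types.

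RNA-sequencing was performed on brains collected 14 d post-stroke from 12 mice, 6 per group. Both groups were male CD45.1 Pep Boy recipients, 8 to 12 weeks old, that received 2 doses of radiation with the head shielded and then a marrow mixture from donors aged 8 to 14 weeks. In the WT group 10% of the mixture was CD45.2 marrow with intact *Tet2*, in the *Tet2*-KO group the same share was CD45.2 marrow lacking *Tet2*, and in both groups the other 90% was CD45.1 marrow with intact *Tet2*. Stroke was induced by 30 min of middle cerebral artery occlusion 8 to 10 weeks after the transplant. The comparison asks how loss of *Tet2* in a minority of transplanted blood progenitors, a model of clonal hematopoiesis, relates to the brain's transcripts after stroke. The recipient's brain cells and most of the marrow kept *Tet2* in both groups, and all 12 mice had a stroke. The treatment entry of the *Tet2*-KO samples names control cells, and the groups were taken from titles and genotype entries.

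Each library held 12000261 to 21049763 counted reads. Levels are given in CPM, a gene's reads relative to all reads of the library with library sizes scaled by the TMM method, and fold changes are log2 of *Tet2*-KO over WT. Markers of brain tissue were present throughout, as the summed level of 8 neuronal genes lay between 3820 and 6562 CPM in every mouse, that of 6 astrocyte genes between 5644 and 7036 CPM and that of 6 oligodendrocyte genes between 4479 and 6315 CPM. *Tet2* itself read 126 to 147 CPM in WT mice and 117 to 137 CPM in *Tet2*-KO mice, which checks no label because recipient cells keep the gene. Over all tested genes the median log2 fold change was 0.010. In each group 1 mouse had the highest level for most of the 9 genes. WT replicate 2 was the highest WT mouse for 8 of them, *Tet2*-KO replicate 5 was the highest *Tet2*-KO mouse for 6, and values with and without these mice are given. At the other end, *Tet2*-KO replicate 1 was the lowest *Tet2*-KO mouse for 6 of the 9 genes.

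The promoters of 3 members are printed because these hold all the motif matches found among the members. RefSeq entries (GRCm38.p6) matched 6 of the 9 genes with 8 promoters, and the 250 bases before each start were searched on both strands for TGACG, the core of the cyclic AMP response element (CRE), for TGTGGT (RUNX), GAGGAAG (PU.1), TTGCNNAA (C/EBP) and TGCTGA (MAF). The C/EBP and MAF letters can cover the same bases, and neither was found in a member's window. Capitals mark TGACG or its reverse complement in *Cebpb* and *Nr4a3* and GAGGAAG in *Batf3*, and only bases outside every annotated exon are printed, 5′ to 3′ on the gene's strand. The positions are chr2:167688665-167688914 for *Cebpb*, chr4:48045055-48045152 for *Nr4a3* and chr1:191098238-191098324 for *Batf3*, all on the plus strand, the last of them inside the gene's annotated span.
Cebpb: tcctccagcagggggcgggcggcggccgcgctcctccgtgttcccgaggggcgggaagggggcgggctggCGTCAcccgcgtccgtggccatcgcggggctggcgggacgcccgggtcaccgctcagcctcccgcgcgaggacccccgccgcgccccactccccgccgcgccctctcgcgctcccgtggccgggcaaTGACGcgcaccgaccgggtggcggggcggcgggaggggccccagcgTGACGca
Nr4a3: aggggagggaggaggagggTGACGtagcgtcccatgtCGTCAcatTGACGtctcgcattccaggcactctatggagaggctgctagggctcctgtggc
Batf3: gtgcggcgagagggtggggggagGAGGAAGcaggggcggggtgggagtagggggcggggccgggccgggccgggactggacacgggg
The *Cebpb* window held 3 TGACG sites and the full *Nr4a3* window 4, of which 3 lie in the printed bases. Among 32817 mouse promoter windows of the same length, 17.7% held at least 1 such site and 0.689% held 3 or more. The single GAGGAAG of *Batf3* occurs in 10.6% of windows. The windows of *Cebpa*, *Runx1* and *Ikzf1* held none of the letters searched, which says nothing about which factors bind there.

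The 9 genes had a lower mean with *Tet2*-KO marrow in every case, and 8 of the 9 by an amount between 0.39 and 1.04 on the log2 scale, while *Nr4a3* had nearly the same mean in both groups. In bulk tissue fewer cells of a type and less RNA per cell cannot be told apart. Among all tested genes 47.7% had a fold change below 0. With edgeR's quasi-likelihood test and Benjamini-Hochberg adjustment over all tested genes, 0 of the 9 passed 0.05, where 0.0246% of all tested genes passed in this direction. At an unadjusted p below 0.05 the count was 7 of 9, *Cebpd* and *Nr4a3* being the exceptions, against 12.2% of all tested genes lower and 10.8% higher. Each gene is also given an exact two-sided permutation p of that gene alone, on log2(CPM + 0.1) and with no adjustment, for which 6 against 6 mice allow no less than 0.00216. The members' median log2 fold change was -0.74. Over the 12 fits that dropped 1 mouse it lay between -0.88 without *Tet2*-KO replicate 5 and -0.59 without *Tet2*-KO replicate 1.

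The number of members past adjustment varied with the tool and with a single mouse. The DESeq2 Wald test on the same genes called 2, *Cebpb* and *Maf*, lower, where it called 4.81% of all genes lower and 2.7% higher, and DESeq2 run on the whole table called *Cebpa*, *Cebpb* and *Ikzf1*, with 3.32% of all genes. Limma-voom with quality weights called 6, *Spi1*, *Cebpa*, *Cebpb*, *Runx1*, *Ikzf1* and *Maf*, against 7.01% of all genes. Those 6 were also called by edgeR when *Tet2*-KO replicate 5 was left out, where 7.3% of all genes were lower, and *Maf* alone when WT replicate 2 was left out as well, with 4.94%. For no member did all 6 *Tet2*-KO mice lie below all 6 WT mice, a pattern seen in 0.641% of tested genes. Without *Tet2*-KO replicate 5 it held for *Runx1* and *Ikzf1*, with 4.76% of genes, and also without both mice, with 4.79%.

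**Figure D1:**
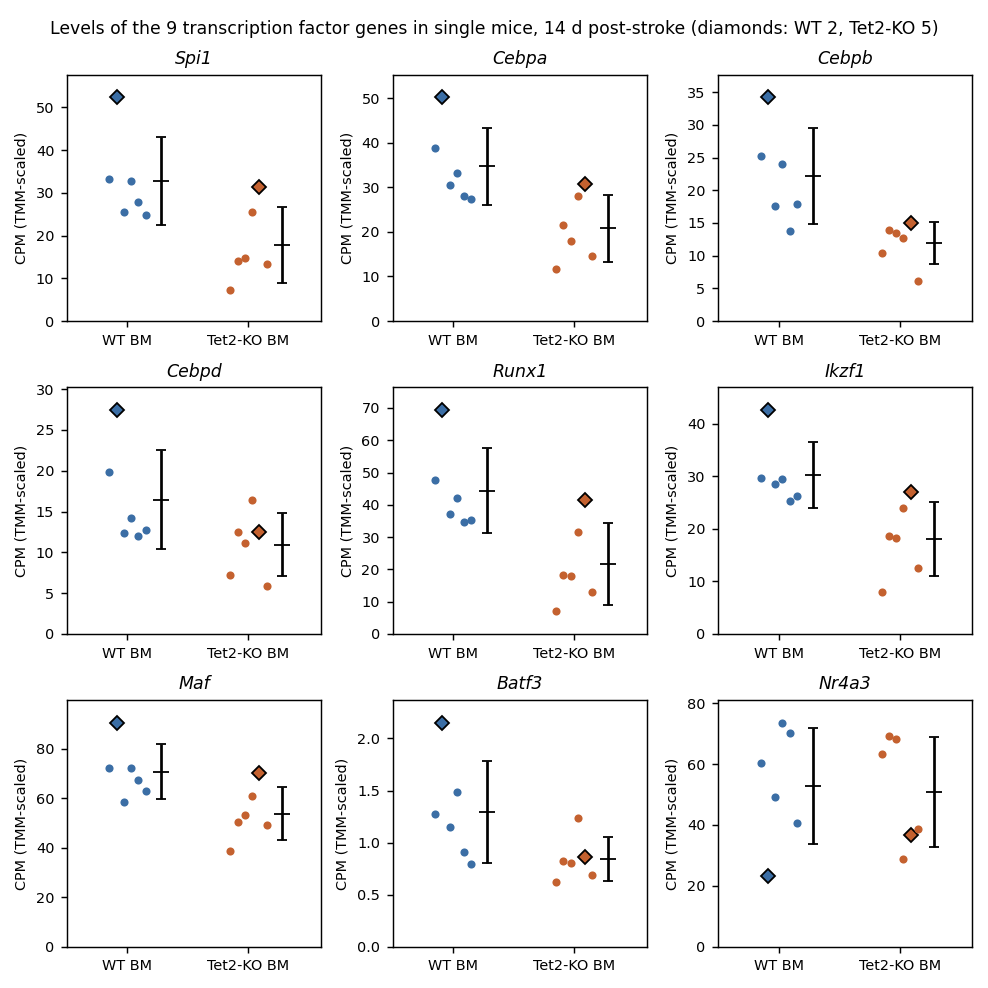
Level of each of the 9 genes in each mouse, in TMM-scaled CPM on axes that start at 0, for mice transplanted with WT BM (blue) and *Tet2*-KO BM (orange). Bars to the right of the points give the mean and SD of 6 mice, and diamonds mark WT replicate 2 and *Tet2*-KO replicate 5. WT replicate 2 is the highest WT mouse in 8 panels and the lowest in that of *Nr4a3*, where the groups cover much the same range.

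*Spi1* (ENSMUSG00000002111, chr2:91082390-91115756, plus strand, GRCm38) encodes PU.1, the ETS factor on which the whole myeloid lineage depends. The lowest, median and highest WT mice were at 24.8, 30.4 and 52.4 CPM, and the *Tet2*-KO mice at 7.31, 14.5 and 31.4 CPM. The groups overlapped through *Tet2*-KO replicates 4 and 5, and the other 4 lay under the whole WT range. The means of 32.8 ± 10.3 and 17.7 ± 8.89 CPM (SD, n = 6 each) gave a log2 fold change of -0.89 (SE 0.33, 95% interval -1.61 to -0.16, edgeR adjusted p = 0.158, exact permutation p = 0.0195). Without WT replicate 2 the fold change was -0.71 and the unadjusted edgeR p no longer passed 0.05 (adjusted p = 0.337, the highest of the 12 fits without 1 mouse, which went down to 0.0429), and without *Tet2*-KO replicate 5 it was -1.12.

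*Runx1* (ENSMUSG00000022952, chr16:92601466-92826149, minus strand) encodes the factor that starts definitive blood formation and is kept on in microglia and macrophages. It had the largest fold change of the 9. WT mice had a lowest, median and highest level of 34.8, 39.6 and 69.4 CPM, against 7.0, 18.2 and 41.5 CPM for *Tet2*-KO mice. Replicate 5 was the one *Tet2*-KO mouse inside the WT range, and 5 of 6 lay below all WT mice. Group means were 44.4 ± 13.2 and 21.6 ± 12.7 CPM (SD, n = 6 each), a log2 fold change of -1.04 (SE 0.38, 95% interval -1.88 to -0.21, edgeR adjusted p = 0.152, exact permutation p = 0.0130). The *Tet2*-KO mice spread widely around their mean, with a coefficient of variation of 58.9% against 29.7% in the WT group. Of the bases in its exons 106 overlap Gm26626 on the opposite strand, which had 107 reads over the 12 mice.

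*Ikzf1* (ENSMUSG00000018654, chr11:11685003-11772926, plus strand) encodes Ikaros, a zinc finger regulator best known from lymphocytes and also present in myeloid cells. Its lowest, median and highest WT mice were at 25.3, 29.0 and 42.6 CPM, and the *Tet2*-KO mice at 7.99, 18.5 and 27.0 CPM. Again 5 of 6 *Tet2*-KO mice lay under the whole WT range, with replicate 5 above the lowest WT mice. The log2 fold change between means of 30.3 ± 6.28 and 18.1 ± 7.01 CPM (SD, n = 6 each) was -0.75 (SE 0.26, 95% interval -1.31 to -0.18, edgeR adjusted p = 0.143). The exact permutation p of *Ikzf1*, 0.00649, was as low as that of *Cebpb* and lower than for the other members.

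The C/EBP proteins are leucine zipper factors that bind the same DNA motif at different stages. *Cebpa* (ENSMUSG00000034957, chr7:35119293-35121928, plus strand) directs progenitors towards granulocytes and monocytes. Its WT mice ranged from 27.4 to 50.3 CPM around a median of 31.8 CPM, and its *Tet2*-KO mice from 11.6 to 30.8 CPM around 19.8 CPM. *Tet2*-KO replicates 4 and 5 lay inside the WT range and the other 4 below it. With means of 34.7 ± 8.70 and 20.8 ± 7.56 CPM (SD, n = 6 each), the log2 fold change was -0.74 (SE 0.25, 95% interval -1.28 to -0.20, edgeR adjusted p = 0.136, exact permutation p = 0.0195).

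*Cebpb* (ENSMUSG00000056501, chr2:167688915-167690418, plus strand), which drives granulocyte production in emergencies and inflammatory genes in macrophages, had the smallest edgeR p of the 9. WT levels were 13.8, 21.0 and 34.3 CPM (lowest, median, highest) and *Tet2*-KO levels 6.08, 13.1 and 15.0 CPM. All 6 *Tet2*-KO mice were below the WT mean, and the overlap came from WT replicate 5, the lowest WT mouse, which sat below *Tet2*-KO replicates 2 and 5. Means were 22.2 ± 7.32 and 11.9 ± 3.27 CPM (SD, n = 6 each), with a log2 fold change of -0.89 (SE 0.24, 95% interval -1.42 to -0.36, edgeR adjusted p = 0.121, exact permutation p = 0.00649). Over the 12 fits that left out 1 mouse the unadjusted p stayed under 0.05 for *Cebpb*, as it did for *Cebpa*, *Runx1*, *Ikzf1* and *Maf*. The fold change of *Cebpb* in these fits lay between -0.99 and -0.72.

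*Cebpd* (ENSMUSG00000071637, chr16:15887286-15891031, plus strand) is switched on in the acute phase response, in astrocytes as well as in macrophages. Its levels were 12, 13.5 and 27.5 CPM in the lowest, median and highest WT mice and 5.85, 11.8 and 16.4 CPM in *Tet2*-KO mice. WT replicates 1 and 2 were above all *Tet2*-KO mice, *Tet2*-KO replicates 1, 3 and 6 were below all WT mice, and the rest were intermixed. The log2 fold change of -0.58 (SE 0.28, 95% interval -1.20 to 0.026) had an edgeR adjusted p of 0.234 and an exact permutation p of 0.0909, on means of 16.5 ± 6.12 and 10.9 ± 3.85 CPM (SD, n = 6 each). Without WT replicate 2 it was -0.38. Leaving out WT replicate 3, WT replicate 5 or *Tet2*-KO replicate 4 brought the unadjusted p under 0.05, at 0.0483, 0.0460 and 0.0226 in edgeR.

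All 3 C/EBP genes have 1 exon, and their exons overlap genes of the opposite strand. The overlap is 51 bases with Gm45091 for *Cebpa*, 312 bases with Tmem189 for *Cebpb* and 562 bases with Spidr for *Cebpd*. Summed over the 12 mice, Gm45091 had 88 reads over its whole length, Tmem189 had 4774 and Spidr had 1041, next to 1824 reads in WT and 1173 in *Tet2*-KO mice for *Cebpb* and 1347 and 1092 for *Cebpd*. The sources used here do not say that the counting kept the strand, and reads in the shared bases cannot be told apart between the genes.

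*Maf* (ENSMUSG00000055435, chr8:115682942-115707794, minus strand) encodes c-Maf, a leucine zipper factor of mature macrophages and T helper cells. It had the smallest spread of the 9, with a coefficient of variation of 15.7% among WT and 20.1% among *Tet2*-KO mice. The lowest, median and highest WT mice were at 58.6, 69.7 and 90.5 CPM, and the *Tet2*-KO mice at 38.6, 51.8 and 70.1 CPM. *Tet2*-KO replicates 4 and 5 overlapped the WT mice, and the others lay below them. The means of 70.6 ± 11.1 and 53.8 ± 10.8 CPM (SD, n = 6 each) differed by a log2 fold change of -0.39 (SE 0.14, 95% interval -0.69 to -0.10, edgeR adjusted p = 0.138, exact permutation p = 0.0238). *Maf* shares 440 exon bases with Gm15655 on the opposite strand, which had 0 counts in every mouse.

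*Batf3* (ENSMUSG00000026630, chr1:191097847-191108945, plus strand) is needed for the conventional dendritic cells that present antigen to CD8+ T cells. Its counts were low, at 9 to 30 reads per mouse. WT mice ranged from 0.793 to 2.15 CPM (median 1.21) and *Tet2*-KO mice from 0.620 to 1.23 CPM (median 0.817). Only *Tet2*-KO replicates 1 and 6 were lower than all WT mice. The log2 fold change was -0.61 (SE 0.25, 95% interval -1.16 to -0.071, edgeR adjusted p = 0.175, exact permutation p = 0.0433), and the means were 1.30 ± 0.489 and 0.840 ± 0.213 CPM (SD, n = 6 each). The unadjusted edgeR p was above 0.05 without WT replicate 2 (log2 fold change -0.41), WT replicate 4 (-0.57), *Tet2*-KO replicate 1 (-0.54) or *Tet2*-KO replicate 6 (-0.57). Markers of the same dendritic cells were likewise near 1 CPM, *Xcr1* at 1.09 ± 0.296 CPM in the WT group and 0.379 ± 0.341 CPM in the *Tet2*-KO group, and *Clec9a* at 1.83 ± 0.581 and 1.04 ± 0.571 CPM (SD, n = 6 each).

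*Nr4a3* (ENSMUSG00000028341, chr4:48045153-48086447, plus strand) encodes an orphan nuclear receptor that is induced within minutes of a stimulus, in leukocytes and in neurons, and like *Cebpb* it has repeated CRE cores in its promoter window. Its WT mice were at 23.3, 54.7 and 73.6 CPM (lowest, median, highest) and its *Tet2*-KO mice at 28.7, 51.0 and 69.2 CPM. The groups covered the same range, with 0 *Tet2*-KO mice below the lowest WT mouse, which here was replicate 2. Means of 52.9 ± 19.1 and 50.8 ± 18 CPM (SD, n = 6 each) gave a log2 fold change of -0.056 (SE 0.31, edgeR adjusted p = 0.939, exact permutation p = 0.892). The 95% interval, -0.74 to 0.63, holds the fold changes of *Cebpa*, *Cebpd*, *Maf* and *Batf3* but not those of the other four, so a difference was not detectable rather than shown to be absent. The sign turned positive with WT replicate 4, WT replicate 5 or *Tet2*-KO replicate 4, 5 or 6 left out, at most to 0.063.

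**Figure D2:**
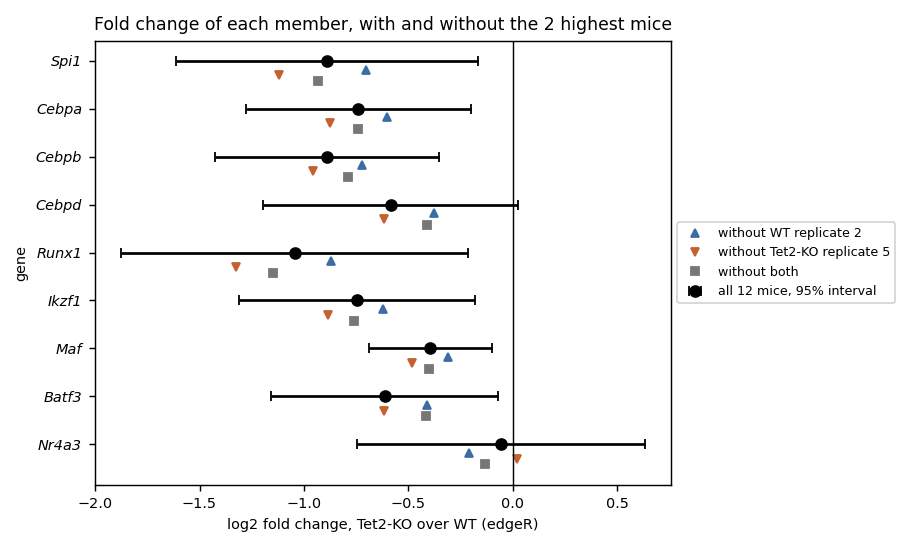
Log2 fold change of each gene, *Tet2*-KO over WT, with the 95% interval of the edgeR fit to all 12 mice (black), and the same value without WT replicate 2 (blue triangles), without *Tet2*-KO replicate 5 (orange triangles) and without both (grey squares). For *Runx1* the value moved from -1.04 to -0.87, -1.32 and -1.15, and for 8 of the genes all 4 values lay below 0. The fit without *Tet2*-KO replicate 1 is not drawn, and it gave -0.86 for *Runx1*.

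The members can be compared in level only per length, here CPM per kilobase of merged exons. In the WT group the order was *Cebpb* (14.7 ± 4.87), *Cebpa* (13.2 ± 3.30), *Spi1* (12.2 ± 3.81), *Nr4a3* (8.83 ± 3.19), *Maf* (8.57 ± 1.35), *Ikzf1* (5.24 ± 1.09), *Cebpd* (4.40 ± 1.63), *Runx1* (3.69 ± 1.1) and *Batf3* (0.811 ± 0.306), all in CPM per kilobase with the SD of 6 mice. Neighbours in this order differed by more than the larger of their SDs only between *Maf* and *Ikzf1* and between *Runx1* and *Batf3*. In the *Tet2*-KO group *Nr4a3* came first at 8.48 ± 3.01, followed by *Cebpb* at 7.94 ± 2.17, *Cebpa* at 7.88 ± 2.87 and *Spi1* at 6.58 ± 3.30 CPM per kilobase (SD, n = 6), and none of these 4 was separated from the next by its SD.

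Whether the members changed unequally was tested on the log2 ratio of 2 members within each mouse, over all 36 pairs, a test chosen after their values had been seen. In 10 pairs the ratio differed between the groups at an unadjusted p below 0.05 (exact two-sided permutation test, 6 mice per group), and after adjustment over the 36 pairs 0 did, the smallest adjusted p being 0.133. *Maf* was in 5 of the 10 pairs and *Runx1* in 6. The log2 ratio of *Runx1* to *Maf* was -0.70 for WT and -1.51 for *Tet2*-KO mice, a difference of -0.81 (SE 0.27), with 4 *Tet2*-KO mice lower than all WT mice. That of *Ikzf1* to *Maf* differed by -0.42 (SE 0.16). For *Runx1* against *Nr4a3* the difference was -1.17 (SE 0.65, exact permutation p = 0.102, adjusted p = 0.270).

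Among mice of the same group the levels of the members varied together, apart from *Nr4a3*. Deviations of log2 CPM from the group mean were correlated over the 12 mice for all 36 pairs, with p from 100000 permutations of mice within groups and adjustment over the pairs. In 25 pairs both Pearson's r and Spearman's rho passed an adjusted 0.05, all of them among the 28 pairs without *Nr4a3*, in which r lay between 0.57 and 0.98. The share of pairs of other genes that would pass was not computed, so this count does not set the members apart from other genes. *Spi1* and *Runx1* had r = 0.980 and rho = 0.916 (adjusted permutation p = 0.00012 and 0.00103), and r was 0.949 without the 2 mice farthest from the median. *Spi1* and *Maf* had r = 0.977 and rho = 0.986 (adjusted permutation p = 9e-05 for both, from an unadjusted 1e-05, the smallest the permutations can give), and 0.949 without those mice. *Cebpb* and *Cebpd* went with each other (r = 0.876, rho = 0.825, adjusted permutation p = 0.00121 and 0.00451, r = 0.839 without the 2 farthest mice) more closely than *Cebpb* went with *Spi1* (r = 0.570, rho = 0.741, adjusted permutation p = 0.0811 and 0.0152, r = 0.641), though the difference between these values was not tested. *Nr4a3* had r between -0.61 and -0.21 with the other eight, and 0 of these 8 pairs passed.

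The same measure was taken against the mean log2 level of 7 gene lists, 63 relations in all, a step also added after the data had been seen. Both adjusted p were below 0.05 in 40. Of the 9 members 8 passed with dendritic cell genes, 7 with border macrophage and 7 with fibroblast genes. With monocyte genes 5 passed, and with homeostatic microglia genes 4. How many other genes would pass with these lists was not computed, so the counts do not set the members apart from other genes. The list of 6 fibroblast genes tracked *Spi1* (r = 0.988, rho = 0.965, adjusted permutation p = 0.000315 and 0.00063) and *Runx1* (r = 0.987, rho = 0.923, adjusted permutation p = 0.000315 and 0.00499), with r = 0.980 and 0.969 without the 2 farthest mice. Homeostatic microglia genes tracked *Runx1* (r = 0.935, rho = 0.790, adjusted permutation p = 0.00339 and 0.0208, r = 0.867 without 2 mice) but not *Cebpb* past the threshold (r = 0.479, rho = 0.503, adjusted permutation p = 0.162 and 0.141, r = 0.590). All members but *Nr4a3* ran against the 8 neuronal genes, with r between -0.90 and -0.71, and all 8 of these relations passed. *Nr4a3* was the one member that passed with the 10 neuronal activity genes, the immediate early genes that firing neurons switch on (r = 0.852, rho = 0.741, adjusted permutation p = 0.00609 and 0.0223, r = 0.909 without 2 mice). With these genes the other 8 members had r between -0.53 and 0.076. Without the 2 farthest mice their r lay between -0.88 (*Spi1*) and -0.47 (*Cebpb*), for which no p was computed. These lists come from the same libraries as the members, and the points of these relations therefore share depth and composition.

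**Figure D3:**
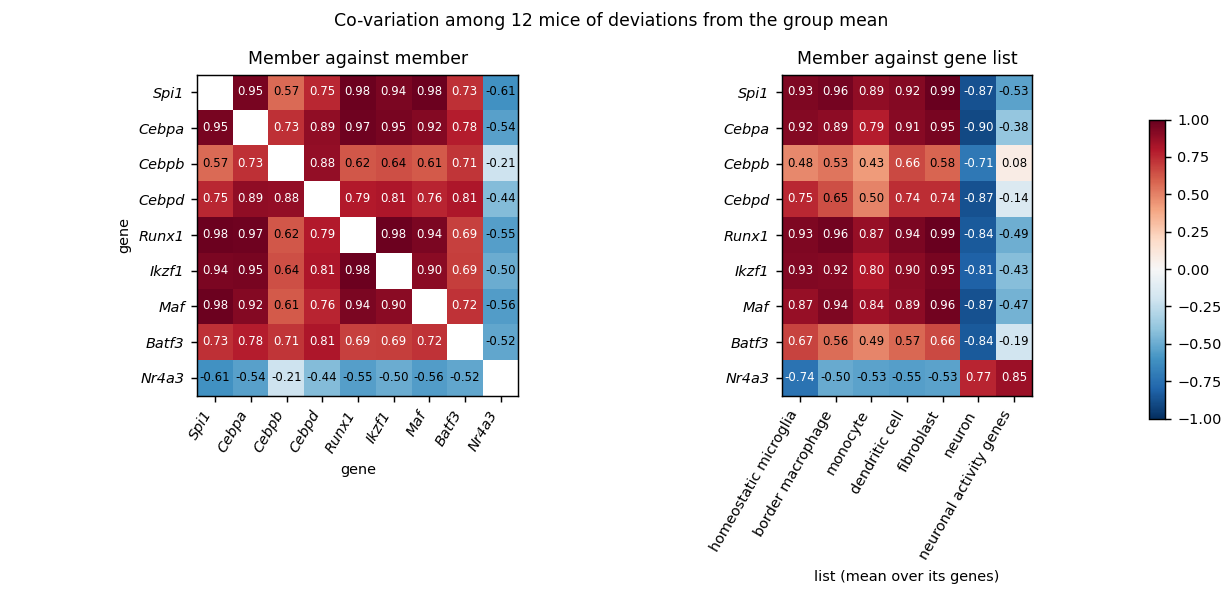
Pearson r over 12 mice of deviations of log2 CPM from the group mean, between pairs of members (left) and between each member and the mean of 7 gene lists (right), on a colour scale from -1 (blue) to 1 (red). *Nr4a3* is blue against all 8 other members, and the lists are of opposite colour in its row and in the other rows, except that *Cebpb* also had an r above 0 (0.076) with neuronal activity genes.

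The genes whose deviations were most like those of a member, among 19100 genes with a mean of at least 1 CPM, are given as a description. For *Spi1* they were *Slc11a1* (r = 0.994), a phagosomal metal transporter, *Abca1* (r = 0.993), a cholesterol exporter, and *Rin3* (r = 0.992). For *Runx1* they were *Unc93b1* (r = 0.994), which escorts Toll-like receptors to endosomes, *Slc15a3* (r = 0.993) and *Nckap1l* (r = 0.993), and for *Ikzf1* *Sh3bp2* (r = 0.988) and *Dock2* (r = 0.987). *Cebpa* went with *Nrros* (r = 0.990), which anchors latent TGF-beta on microglia, *Arap1* (r = 0.989) and *Tgfb1* (r = 0.985). *Maf* went with *Slc31a2* (r = 0.988), *Cnn2* (r = 0.986) and *Mrc2* (r = 0.985), a collagen receptor. The nearest genes to *Cebpb* and *Cebpd* were of another kind, *Atp13a2* (r = 0.947), *Rps9* (r = 0.943) and *Mknk2* (r = 0.940) for the first and *Myoc* (r = 0.979), *Gna12* (r = 0.979) and *Rps12* (r = 0.976) for the second, 2 of them ribosomal protein genes. *Batf3* was nearest to *Maged2* (r = 0.968), *Slc25a39* (r = 0.944) and *Socs3* (r = 0.939). *Nr4a3* was nearest to *Dnajb5* (r = 0.979), *Spred2* (r = 0.963) and *Mical2* (r = 0.960), whose log2 fold changes were 0.12, 0.094 and 0.16. All these r were taken over the 12 mice.

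Relatives of the members in the same protein families were compared next. Of 29 such genes 24 were tested, 10 had a lower and 1 a higher level at an unadjusted p below 0.05 (12.2% and 10.8% of all tested genes), 0 passed adjustment in edgeR, and the median log2 fold change was -0.25. *Spib*, *Spic*, *Cebpe*, *Mafa* and *Nrl* had too few counts to be tested. Among ETS factors 5 of 6 tested were lower at that threshold, led by *Etv6* (-0.41, SE 0.11), *Ets1* (-0.45, SE 0.12), *Fli1* (-0.73, SE 0.22) and *Elf1* (-0.65, SE 0.22), all of them blood or endothelial regulators, while *Ets2* was higher (0.12, SE 0.049), as log2 fold changes. *Cbfb*, the partner that RUNX1 needs to bind DNA, was at 29.0 ± 3.75 and 23.2 ± 3.49 CPM (log2 fold change -0.32, SE 0.10), and *Runx3*, a lymphocyte and myeloid RUNX gene, at 3.84 ± 1.44 and 1.26 ± 1.20 CPM (-1.62, SE 0.50). *Ikzf3*, the Ikaros relative of lymphocytes, was at 2.26 ± 0.927 and 0.865 ± 0.554 CPM (log2 fold change -1.40, SE 0.36), *Batf* at 1.67 ± 0.732 and 0.589 ± 0.332 CPM (-1.53, SE 0.38) and *Batf2* at 1.59 ± 0.452 and 0.839 ± 0.709 CPM (-0.97, SE 0.41), each given for WT and then *Tet2*-KO (mean ± SD, n = 6).

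For the families of *Cebpb*, *Maf* and *Nr4a3* no relative passed the unadjusted threshold. Neither C/EBP relative tested did, nor did any of the 4 MAF relatives tested. *Nr4a1* had a log2 fold change of -0.18 (SE 0.44) and *Nr4a2* of 0.36 (SE 0.27), and neither reached an unadjusted p below 0.05.

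**Figure D4:**
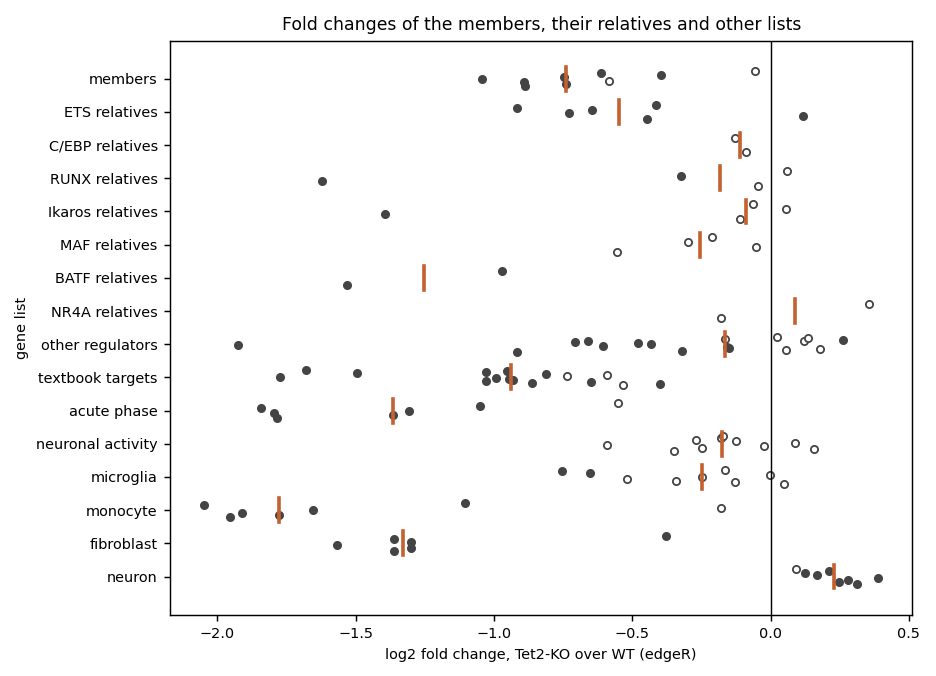
Log2 fold change, *Tet2*-KO over WT, of each tested gene in the list of members, in the families of their relatives and in other gene lists. Filled points have an unadjusted edgeR p below 0.05, open points do not, and orange bars mark each list's median, which is -0.74 for the members, -0.94 for textbook targets and 0.23 for neuronal genes.

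Other regulators of myeloid cells were more often lower than higher. Of 18 listed 17 were tested, and an unadjusted p below 0.05 was reached by 10 with a lower and 1 with a higher level. Of all tested genes 12.2% were lower and 10.8% higher at that threshold. In the list 0 passed adjustment in edgeR, and the median log2 fold change was -0.17. *Nfil3*, a leucine zipper factor of innate lymphoid and dendritic cells, was the one gene of the list in which all 6 *Tet2*-KO mice lay below all 6 WT mice. That pattern was seen in 0.641% of tested genes. Its WT and *Tet2*-KO levels were 10.9 ± 1.49 and 7.14 ± 1.34 CPM (log2 fold change -0.60, SE 0.13). *Nr1h3*, the cholesterol sensor LXR alpha, had -0.66 (SE 0.17), *Mitf* -0.43 (SE 0.13) and *Tfec* -1.92 (SE 0.60), whereas *Mef2c*, which neurons also express, was higher at 0.26 (SE 0.081), all as log2 fold changes. *Irf8*, PU.1's partner in monocytes and microglia, was at 56.2 ± 15.5 CPM with WT BM and 29.8 ± 17.2 CPM with *Tet2*-KO BM (SD, n = 6 each).

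Textbook targets of PU.1 and the C/EBP proteins were lower in sign in all 16 tested of 18, where 47.7% of all tested genes were. An unadjusted p below 0.05 was reached by 13 of the 16, against 12.2% of all tested genes in this direction, 0 passed adjustment in edgeR, and the median log2 fold change was -0.94. Those named were the receptor chain *Csf2ra* at -0.40 (SE 0.12) and the Toll-like receptors *Tlr4* at -0.95 (SE 0.32) and *Tlr2* at -1.03 (SE 0.35). *Mpo* and *Elane*, the granule genes of marrow progenitors, had too few counts to be tested. Of 7 acute phase genes that C/EBP beta and delta are known to drive, all were tested and 6 were lower at an unadjusted p below 0.05, and 0 passed adjustment in edgeR, with a median of -1.36, among them *Hp* (-1.80, SE 0.45), *Ptx3* (-1.31, SE 0.43), *Cp* (-1.05, SE 0.34) and *C3* (-1.84, SE 0.68). Of the 10 neuronal activity genes, which *Nr4a3* tracked among mice, 0 passed that threshold and the median was -0.18.

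Markers of several cell types differed between the groups alongside the members. Among 7 monocyte genes 6 were lower at an unadjusted p below 0.05, the threshold of all marker counts that follow. At that threshold 12.2% of all tested genes were lower and 10.8% higher. The summed level of the 7 was 428 to 871 CPM in WT mice and 155 to 524 CPM in *Tet2*-KO mice. Most of this sum was *Fn1*, at 474 ± 140 CPM in WT and 221 ± 113 CPM in *Tet2*-KO mice (SD, n = 6 each). The 8 dendritic cell genes had 6 lower (63.3 to 97.6 against 41.8 to 76.0 CPM), 4 of the 7 tested border macrophage genes were lower (48.3 to 85.5 against 15.1 to 59.7 CPM), and all 5 tested T cell genes were (13.3 to 21.7 against 7.49 to 13.4 CPM). Homeostatic microglia had 2 of 9 lower (750 to 1368 against 350 to 950 CPM), with a median log2 fold change of -0.25. In sign 8 of the 9 were lower. The exception was *P2ry12*, which marks microglia at rest, at 39.9 ± 4.53 and 41.2 ± 7.92 CPM (SD, n = 6 each), a log2 fold change of 0.047.

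Outside the blood lineages, 6 of 6 fibroblast genes were lower at the same threshold, with a sum of 581 to 1313 CPM in WT and 147 to 735 CPM in *Tet2*-KO mice, and 3 of 6 endothelial genes were lower (212 to 257 against 186 to 232 CPM). Of the neuronal genes 7 of 8 were higher, summing to 3820 to 5436 CPM in WT mice and 4977 to 6562 CPM in *Tet2*-KO mice. Among neutrophil genes 5 of 9 were tested and all 5 were lower, with summed levels of 71.4 to 159 and 22.7 to 81.0 CPM. Most of this sum was *Csf3r*, which is also among the textbook targets of PU.1 and the C/EBP proteins. *Csf3r* was at 83.1 ± 27.4 CPM in WT and 45.7 ± 21.7 CPM in *Tet2*-KO mice (SD, n = 6 each). *S100a8* and *S100a9* passed adjustment in edgeR (adjusted p = 0.0364 for both), but the defining *Ly6g* had at most 1 read in any mouse. No other gene of the cell type lists passed adjustment in edgeR. Red cell genes were higher in 3 of 5 (21.2 to 31.5 against 27.4 to 41.2 CPM). B cell genes were lower in both of the 2 tested of 5. Neither the 6 oligodendrocyte nor the 5 choroid plexus genes had any member past the threshold, 1 of 6 astrocyte genes was higher, and so was 1 of 6 striatal neuron genes. *Tet2*-KO replicate 5, the mouse nearest to the WT group for the transcription factors, had the highest *Tet2*-KO sum for monocyte (524 CPM), border macrophage (59.7 CPM), dendritic cell (76.0 CPM) and fibroblast genes (735 CPM). The part that these cell types have in the levels of the 9 genes was not tested.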

How the data were processed

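RNA from the brains of 12 mice was depleted of ribosomal RNA and sequenced. Per the labels, the authors' processing notes name Trimmomatic 0.36, STAR 2.5.2b, the mm10 genome and Subread 1.5.2 with featureCounts, and the deposited values are raw counts of reads per gene, with 1 column per mouse. Strand setting and annotation release are not given in the sources used here. Gene positions were read from GENCODE annotation of GRCm38, the same build as mm10, and exon lengths are of merged exons.

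Library totals ranged from 12000261 to 21049763 counts, and every pair of libraries of the same group differed by more than sampling noise (chi-square per degree of freedom from 2.00 to 27.5). Nothing in the labels says how tissue was pooled or batched, so the spread between mice may be partly technical. Groups were taken from the labels. Genes were filtered with filterByExpr, scaled by TMM and tested with edgeR 4.0.16 (R 4.3.3) by the quasi-likelihood test, *Tet2*-KO against WT, with Benjamini-Hochberg adjustment over 20290 genes. The 95% intervals use the t quantile of that fit. Single values were tested by exact two-sided permutation of log2(CPM + 0.1), and co-variation used log2 CPM with a prior count of 2. Alternatives were DESeq2 1.42.0, limma 3.58.1 (voom with quality weights), other scalings and filters, a replicate block and leaving out each mouse. DESeq2 on the unfiltered table and the fit without WT replicate 2 and *Tet2*-KO replicate 5 were chosen after seeing the data.

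The members and gene lists were chosen with earlier results of these data known. Of each list the up to 4 genes with the smallest unadjusted p below 0.05 in each direction were named, and for each member the 3 genes with the highest Pearson r, except that some genes this rule selects are not reported here. *Irf8*, *Nr4a1*, *Nr4a2*, *P2ry12*, *Clec9a*, *Csf3r* and *Ly6g* were named in addition, after their values were seen. Ratios between members and relations to marker lists were also chosen after the data were seen.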

Additional observations from a re-analysis of the deposited data

Results flagged for a closer look

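In 18 groups of 6 values, a group for each of the 9 genes and each kind of marrow, the gap between the extreme mouse and its nearest neighbour was compared with the group's whole range by Dixon's test at the 95% level. Its critical value was exceeded 3 times, each time by the WT replicate 2 mouse as the highest WT value. The gap took up 0.696 of the range for *Spi1*, 0.632 for *Runx1* and 0.750 for *Ikzf1*. Chance exceeds this value in about 1 of 20 groups, and these 3 genes are not independent, since they varied together among mice. WT replicate 2 also had the highest WT sums of monocyte (871 CPM), homeostatic microglia (1368 CPM) and fibroblast genes (1313 CPM) and the lowest of neuronal genes (3820 CPM), and the part of these in its values was not tested.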

How the results depend on the processing

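The 8 members other than *Nr4a3* had a negative log2 fold change under every alternative in which they were tested, and *Batf3* was not tested with at least 10 counts in every library. The number of genes past the adjusted threshold, 5 with edgeR, was 1464 with DESeq2, 898 with DESeq2 on all genes, 2013 with limma-voom, 44 with no filter on low counts, 0 with at least 10 counts in every library, 1554 without WT replicate 2 and *Tet2*-KO replicate 5, and 0 to 2257 with each mouse left out, the highest without *Tet2*-KO replicate 5 and the next, 13, without WT replicate 6. Members past it, 0 with edgeR, numbered 2 with DESeq2, 3 with DESeq2 on all genes, 6 with limma-voom, 1 without both mice and 0 to 6 with 1 mouse left out. Members with all *Tet2*-KO mice below all WT mice numbered 0 to 2 with 1 mouse left out (2 without *Tet2*-KO replicate 5, 1 without WT replicate 5) and 2 without both. Members lower at an unadjusted p below 0.05 numbered 5 to 8 over the 12 fits that left out 1 mouse, the lowest, 5, without WT replicate 2, where 7.92% of genes were. For *Nr4a3* the log2 fold change ran from -0.21 (without WT replicate 2) to 0.063 with 1 mouse left out, changing sign to 0.063 without WT replicate 4, 0.041 without WT replicate 5, 0.063 without *Tet2*-KO replicate 4, 0.020 without *Tet2*-KO replicate 5 and 0.010 without *Tet2*-KO replicate 6. Upper quartile scaling moved the split of unadjusted calls from 2477 lower and 2201 higher genes to 2129 and 3009, and left 7 members lower. The causes of these changes were not tested.

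Mice of both groups carry the replicate numbers 1 to 6, but same-numbered mice did not deviate together (correlations between -0.19 and 0.27, and 1 of 6 numbers matched its own best), so the numbers do not pair the samples. With the replicate number as a block, 0 genes and 0 members passed adjustment, 7 members were lower at an unadjusted p below 0.05, and the members' median log2 fold change was -0.78. Depth limits *Batf3* most, at 9 to 30 reads per mouse.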
